A study of Homo sapiens with 6 samples.

Results

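The cytosolic ribosomal protein genes were examined in BaF3-T315I cells after exposure to I13. They were taken as the rows of the deposited table with the biotype protein_coding whose symbol is Rpl or Rps followed by a number, with the usual suffixes, together with Rplp0, Rplp1, Rplp2 and Rpsa. This gave 80 of the 22413 genes listed, 48 of the large and 32 of the small ribosomal subunit. The choice used symbol and biotype only, and no expression value. A further 3 rows matched by symbol but carried a pseudogene biotype and were kept apart (Rps3a2, Rps3a3 and Rpl6l), and Rpl10l, Rpl39l and Rps4l were not analysed here.

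BaF3 is a murine pro-B cell line whose parental cells depend on interleukin-3. BaF3-T315I is its stable transfectant carrying BCR-ABL with the imatinib-resistant T315I change, which both groups share. The medium that the paper gives for these cells names no interleukin-3. The groups were 3 samples labelled control, whose vehicle and time the labels do not give, and 3 samples exposed to 1.1 µM I13, an inhibitor of histone deacetylases, for 48 h. The labels name the organism as human, but the gene identifiers and symbols are those of the mouse and were used as such. Stranded poly(A) mRNA libraries were sequenced and given as FPKM, fragments on a gene scaled by its length and by the mapped fragments of the library. The totals behind the FPKM, recovered from the values, were 17722950, 17632514 and 17622311 fragments for control replicates 1, 2 and 3 and 17623236, 16762119 and 17506309 fragments for I13 replicates 1, 2 and 3. The labels do not say that the replicates are separate cultures, so the p-values measure the spread between these samples, which may be technical.

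The cytosolic ribosome joins a small subunit, which reads the mRNA, to a large subunit, which forms the peptide bond and carries a flexible stalk that recruits the translation factors. Each protein is made in amounts close to those of the others, and surplus copies are degraded. Their mRNAs are among the most abundant in growing cells, and many open with a terminal oligopyrimidine (TOP) tract, through which mTORC1 signalling and LARP1 set how well they are translated. Some of the proteins, RPL5 and RPL11 among them, bind MDM2 when free of the ribosome and so release p53.

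Ribosomal protein genes were among the most abundant in the libraries. Of the 100 genes with the highest mean FPKM, 37 were ribosomal protein genes. Rplp1, a stalk protein, ranked 4 among all listed genes at a mean of 4355 FPKM over the 6 samples, followed by Rpl8 at 4012 FPKM and Rplp0 at 3197 FPKM. In control cells the median member stood at 450 FPKM, 69 members had a mean of at least 100 FPKM over the 6 samples, and 18 had at least 1000 FPKM. The large subunit genes had a median control level of 460 FPKM and the small subunit genes one of 445 FPKM. At the low end, 7 large subunit members had a control mean under 30 FPKM, and no small subunit member did.

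The ribosomal protein genes together held 16.2%, 15.1% and 16.4% of the FPKM in control replicates 1, 2 and 3, and 14.4%, 13.5% and 14.6% in I13 replicates 1, 2 and 3. The groups did not overlap, with means of 15.9% ± 0.709 (SD, n = 3) in control and 14.2% ± 0.619 (SD, n = 3) in I13 cells. Counted as library fragments the share was 9.20%, 8.21% and 9.20% in control and 7.88%, 7.18% and 8.04% after I13. Both are shares of a library, set also by its other transcripts, and measure no amount per cell. In this bulk RNA, a rise of other transcripts, fewer cells of a type and less RNA per cell cannot be told apart. Replicate 2 was the lowest sample of both groups on both scales. The share of the mitochondrially encoded genes, followed as a sign of RNA quality, was 7.42%, 6.46% and 6.40% of the FPKM in control and 7.82%, 7.68% and 7.08% in I13 replicates 1, 2 and 3, with overlapping groups. Its part in the ribosomal protein values was not tested.

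Fold changes were computed as I13 minus control on log2(FPKM + 0.1) with limma over the 12163 genes with a mean of at least 0.5 FPKM, and p-values were adjusted over all of them by the Benjamini-Hochberg method. Of the 80 members, 78 passed this filter, and Rpl24 and Rpl3l did not. A gene was called if its adjusted p lay below 0.05 and its log2 fold change reached 0.58 in either direction. No member was called, and the same thresholds called 0.0411% of all tested genes. The lowest adjusted p of any member was 0.115. The differences were small and mostly of one sign. The log2 fold change was below 0 in 73 of the 78 members, against 50.8% of all tested genes. Its median was -0.18 over the members, with quartiles of -0.25 and -0.07, and -0.01 over all tested genes. On the linear scale the median change was -11.8%.

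At an unadjusted p below 0.05, 26 members were lower and 1 (Rpl26) was higher, where 10.8% and 7.79% of all tested genes were lower and higher. After scaling by median ratios 7 members were lower at that p, 8.97% of those tested and thus near the 9.45% of all genes. Rescaling to TPM gave 28 (35.9%, against 8.11% of all genes). Scaling to the FPKM total without ribosomal protein genes gave 32 (41%, against 10.5%). The values of the 3 I13 samples lay below all 3 control values in 32 members, against 15.4% of all tested genes. They lay above them in 1 member, Rpl26, and in 1194 of the 12163 tested genes. Same-numbered samples of the groups deviated together across all tested genes (r of 0.145, 0.301 and 0.219 in pairs 1, 2 and 3), and across the 78 members in pairs 2 and 3 (0.285 and 0.629) but not in pair 1 (-0.026). Over the members, control replicate 2 correlated more with I13 replicate 1 (0.330) than with its own number, and control replicate 1 with I13 replicate 3 (0.128), so the pairing rests on all genes and not on the members. Compared pair by pair, 58 members were lower after I13 in all 3 pairs, against 27.3% of all tested genes. When the replicate number was entered as a block in limma, 6 members had an adjusted p below 0.05, all lower after I13, against 1.24% of all tested genes. These were Rpl3, Rplp0, Rps2, Rps3, Rpl27a and Rpl10a, the last pair of which was picked out after its values were seen. With limma-voom on the recovered fragments and the same block, 20 members had an adjusted p below 0.05 and were lower, against 5.77% of all tested genes. Beyond the 6, these included Rpsa, Rpl15, Rpl8, Rplp1, Rpl10, Rps6 and Rps15. None of these members reached the fold change threshold in either paired fit. Of the 6 members, only Rpl3 kept an adjusted p below 0.05 when the trend with gene length was removed as well, and 0 did when any 1 of the pairs was left out. With the length trend removed, the fold changes of Rplp0, Rps2 and Rps3 stayed about as large, at -0.39, -0.35 and -0.37. Their adjusted p-values from limma with the block were then 0.0505, 0.0538 and 0.0538.

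**Figure D1:**
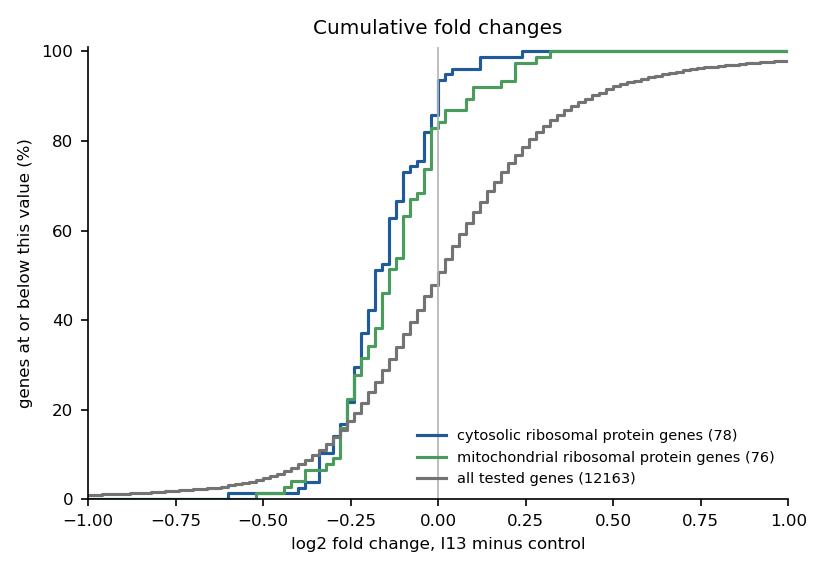
Percentage of genes (vertical axis) whose log2 fold change, I13 minus control, was at or below the value on the horizontal axis, for the tested cytosolic ribosomal protein genes, the mitochondrial ribosomal protein genes and all tested genes. The medians were -0.18 for the 78 cytosolic, -0.15 for the 76 mitochondrial and -0.01 for the 12163 tested genes.

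The 6 samples did not contribute alike. Set against the control mean of each gene, the median member was at 0.05, -0.10 and 0.06 (log2) in control replicates 1, 2 and 3 and at -0.14, -0.28 and -0.12 in I13 replicates 1, 2 and 3. Control replicate 2 was thus close to I13 replicates 1 and 3, and 71 of the 78 members lay below their control mean in it. Between same-numbered samples, 66, 70 and 68 members were lower after I13 in pairs 1, 2 and 3, with medians of -0.19, -0.19 and -0.17. Between control replicate 2 and I13 replicate 3, in contrast, 43 members were lower with a median of -0.02, and between control replicate 2 and I13 replicate 1, 50 members were lower with a median of -0.04. The median over the members was -0.12 when I13 replicate 2 was left out, with -0.03 over all tested genes, so the distance between them went from -0.18 to -0.09. In that fit 6 members were lower at an unadjusted p below 0.05, against 8.50% of all tested genes. The median over the members was -0.23 when control replicate 2 was left out, with 34 such members (8.23% of all tested genes). Without control replicates 1 and 3 or I13 replicate 1 there were 6, 9 and 11 such members, beside 7.42%, 9.56% and 6.73% of all tested genes.

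**Figure D2:**
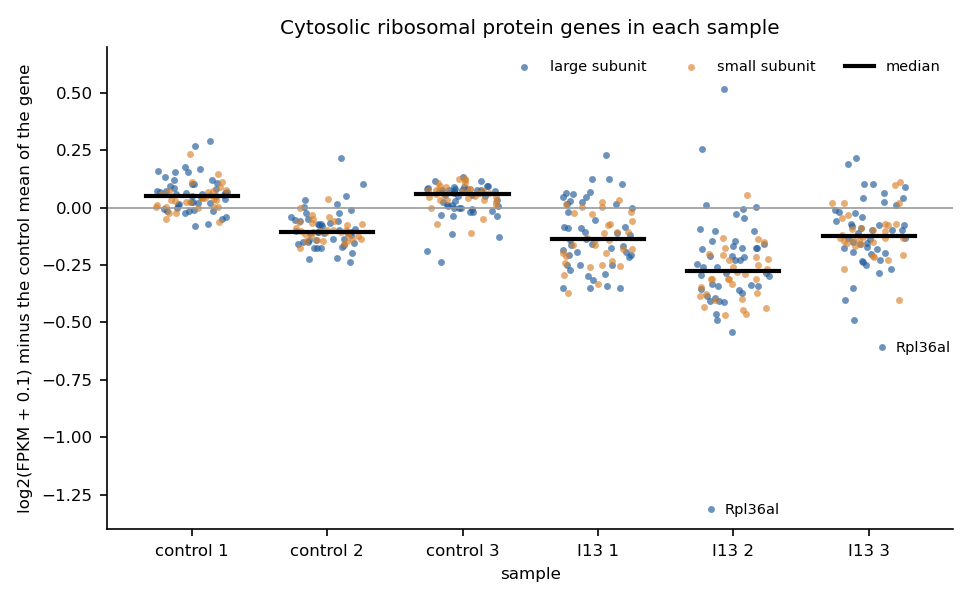
Each point is 1 of the 78 tested ribosomal protein genes in 1 sample, drawn as its log2(FPKM + 0.1) minus the mean of that gene over the 3 controls, and the bars are the sample medians. The medians ran from 0.06 in control replicate 3 to -0.28 in I13 replicate 2, and control replicate 2 at -0.10 lay next to I13 replicate 3 at -0.12.

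By subunit, the fold change was below 0 in 41 of 46 tested large subunit genes, with a median of -0.17, and in 32 of 32 small subunit genes, with a median of -0.19. These counts were 38 and 29 when the values were rescaled to TPM or by median ratios, since Rpl29, Rpl36a, Rplp2, Rps20, Rps27l and Rps28, all within 0.02 of 0, then turned positive. The large subunit genes were the more spread, from -0.61 in Rpl36al to 0.23 in Rpl26, while the small subunit genes ran from -0.35 in Rps2 to just below 0 in Rps28. No test of the difference between the subunits was made.

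**Figure D3:**
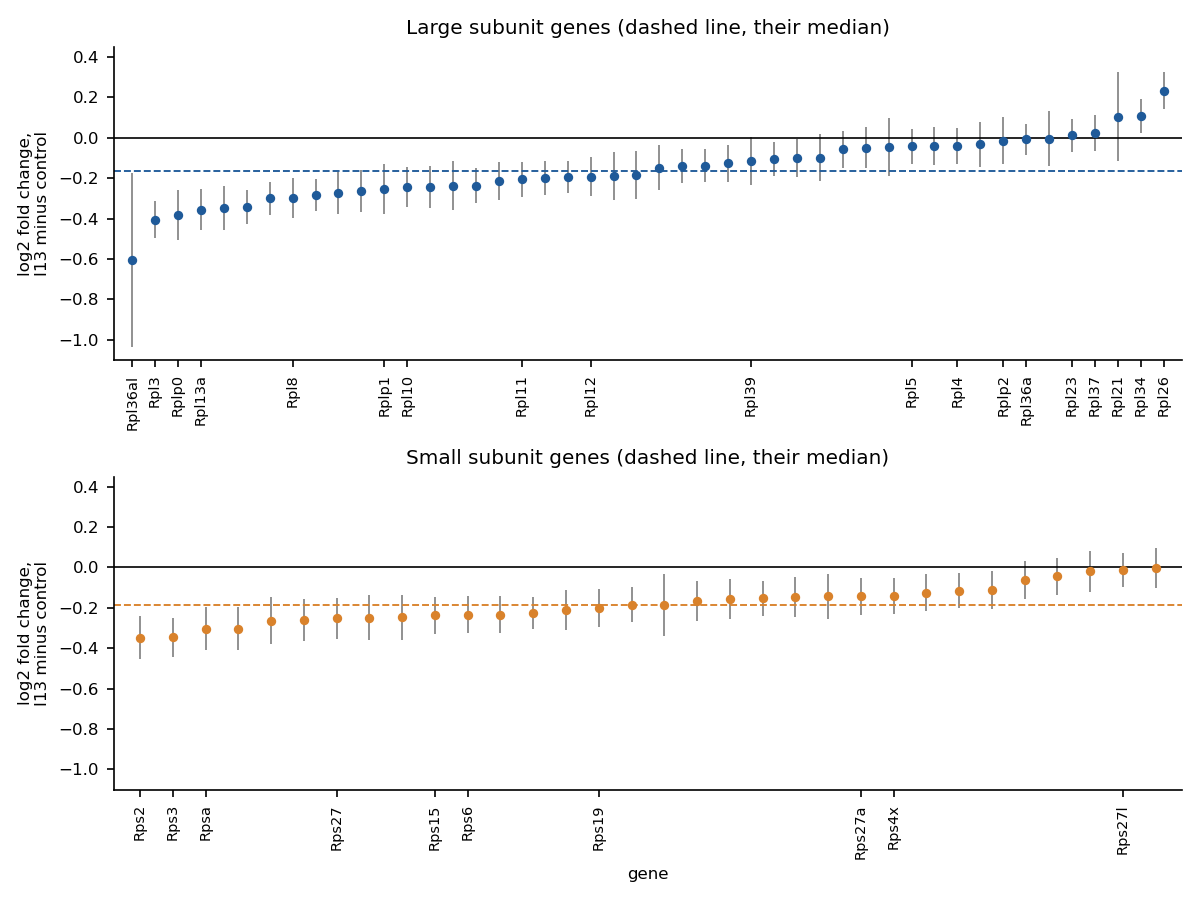
Log2 fold change, I13 minus control, of the 46 large and 32 small subunit genes tested, in rising order, with the standard error from limma as the vertical line and the symbols of the genes named by rule. All 32 small subunit genes and 41 of the large subunit genes lie below 0, and no gene reached an adjusted p below 0.05 in the fit without the block.

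The stalk is the part of the large subunit that contacts elongation factors, and its base, Rplp0, was among the genes with the lowest fold change. Rplp0 had 3921, 3142 and 3798 FPKM in control replicates 1, 2 and 3 and 2847, 2479 and 2994 FPKM in I13 replicates 1, 2 and 3. The groups did not overlap, and control replicate 2 was the nearest to the I13 samples. The log2 fold change was -0.38 (SE 0.12), with an adjusted p of 0.179 from limma without and 0.0447 with the replicate block. Rplp1, one of the acidic proteins that hang from the base, had 5000, 4214 and 4987 FPKM in control and 3905, 3548 and 4476 FPKM after I13. Here the groups overlapped, since I13 replicate 3 exceeded control replicate 2, and the log2 fold change of -0.25 (SE 0.12) had an adjusted p of 0.318 without and 0.0808 with the block from limma, neither of which passed, and 0.0401 from limma-voom with the block. Its partner in the stalk, Rplp2, had 422, 348 and 414 FPKM in control and 401, 348 and 423 FPKM after I13, which gave a log2 fold change of -0.01 (SE 0.12). The acidic partners, which bind the stalk as dimers, thus had different estimates, a difference that was not tested. Rpl12, which anchors the stalk base to the rRNA, had 365, 317 and 375 FPKM in control and 313, 288 and 321 FPKM after I13, a log2 fold change of -0.19 (SE 0.10) with overlap between the groups and an adjusted p of 0.332 from limma. With the block its adjusted p was 0.107 from limma and 0.0809 from limma-voom.

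Among the proteins of the large subunit core, Rpl3, which reaches towards the peptidyl transferase centre, had the smallest adjusted p of all members in the fit without the block. It had 466, 407 and 472 FPKM in control replicates 1, 2 and 3 and 351, 325 and 338 FPKM in I13 replicates 1, 2 and 3. Every I13 value lay below every control value, a mean change of -24.6%. The log2 fold change was -0.40 (SE 0.09), with an adjusted p of 0.115 from limma without and 0.0447 with the block, the latter tied with Rplp0. Rpl8, a core protein near the same centre, had 4763, 4097 and 4416 FPKM in control and 3710, 3335 and 3750.1 FPKM after I13. It was the second most abundant member, and the groups did not overlap, with a log2 fold change of -0.30 (SE 0.10) and an adjusted p of 0.190 without and 0.0567 with the block from limma, and 0.0172 from limma-voom with the block. Rpl10, which is placed late in assembly and completes the active site, had 592, 526 and 600.0 FPKM in control and 495, 442 and 514 FPKM after I13, again without overlap and with a log2 fold change of -0.24 (SE 0.10). Its adjusted p was 0.246 without and 0.0682 with the block from limma and 0.0409 from limma-voom with the block.

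Rpl27a and Rpl10a, structural proteins of the same subunit, stood close to Rpl3. Rpl27a had 596, 499.8 and 584 FPKM in control and 448, 398 and 475 FPKM after I13, a log2 fold change of -0.35 (SE 0.11). Rpl10a had 764, 683 and 745 FPKM in control and 573, 555 and 599 FPKM after I13, a log2 fold change of -0.34 (SE 0.08). Both were free of overlap between the groups and had an adjusted p of 0.0478 from limma with the block, against 0.173 and 0.123 without it. Rpl13a, a large subunit protein also known for a role in the silencing of inflammatory mRNAs, was listed at far lower levels, 14.4, 13.5 and 13.4 FPKM in control and 10.8, 11.7 and 9.78 FPKM after I13. Its log2 fold change of -0.36 (SE 0.10) had an adjusted p of 0.151 without and 0.0808 with the block from limma, and 0.0558 from limma-voom with the block.

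Rpl4, which lines the exit tunnel, did not share that pattern. It had 1875, 2011 and 1933 FPKM in control and 2004, 1903 and 1762 FPKM after I13, with overlapping groups and a log2 fold change of -0.04 (SE 0.09). Rpl39, a small protein of the tunnel wall, had 140.0, 107 and 129 FPKM in control and 115, 107 and 122 FPKM after I13. The control samples alone covered the whole I13 range, and its log2 fold change was -0.12 (SE 0.12, adjusted p 0.637 from limma). The value was -0.03 without control replicate 1 and -0.23 without control replicate 2.

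RPL5 and RPL11 enter the large subunit together as a particle with the 5S rRNA. Rpl11 had 495, 440.3 and 479 FPKM in control and 417, 387 and 422 FPKM after I13. The groups did not overlap, and the log2 fold change was -0.21 (SE 0.09, adjusted p 0.264 from limma). For Rpl11 the adjusted p with the block was 0.0912 from limma and 0.067 from limma-voom. Rpl5 had 343, 331 and 361 FPKM in control and 361, 321 and 324 FPKM after I13, with overlap and a log2 fold change of -0.04 (SE 0.09, adjusted p 0.827 from limma). Mdm2, the ubiquitin ligase that both proteins can bind, had 12.9, 14.4 and 15.8 FPKM in control and 20.6, 25 and 25.4 FPKM after I13. It was higher in every I13 sample than in any control, with a log2 fold change of 0.72 (SE 0.12), and it passed only with the replicate block (adjusted p 0.0322, against 0.0989 without, both from limma). Trp53, which encodes p53, had 79.1, 70.4 and 71.4 FPKM in control and 60.2, 58.1 and 56.4 FPKM after I13, a log2 fold change of -0.34 (SE 0.08) with an adjusted p of 0.127 without and 0.0567 with the block from limma, and 0.0222 from limma-voom with the block.

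Only 5 members had a fold change above 0. Rpl26, which sits near the tunnel exit and is known to bind p53 mRNA, had 25.7, 21.6 and 23.1 FPKM in control and 27.4, 28.0 and 27.2 FPKM after I13. It was the single member in which every I13 value exceeded every control value, with a log2 fold change of 0.23 (SE 0.09), an unadjusted p of 0.0397 and an adjusted p of 0.244 from limma. With the block its adjusted p was 0.142 from limma and 0.141 from limma-voom. Rpl34 had 124, 132 and 135 FPKM in control and 142, 131 and 149 FPKM after I13, a log2 fold change of 0.11 (SE 0.09) with overlap between the groups. Rpl21 had 3.12, 3.60 and 2.60 FPKM in control and 3.14, 4.46 and 2.62 FPKM after I13, resting on 78 to 127 fragments a sample, with a log2 fold change of 0.11 (SE 0.22). These large subunit proteins did not pass the test. Rpl37 and Rpl23, the latter another MDM2 binder, had log2 fold changes of 0.02 (SE 0.09) and 0.01 (SE 0.08), and the sign of Rpl21, Rpl37 and Rpl23 turned when single samples were left out.

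**Figure D4:**
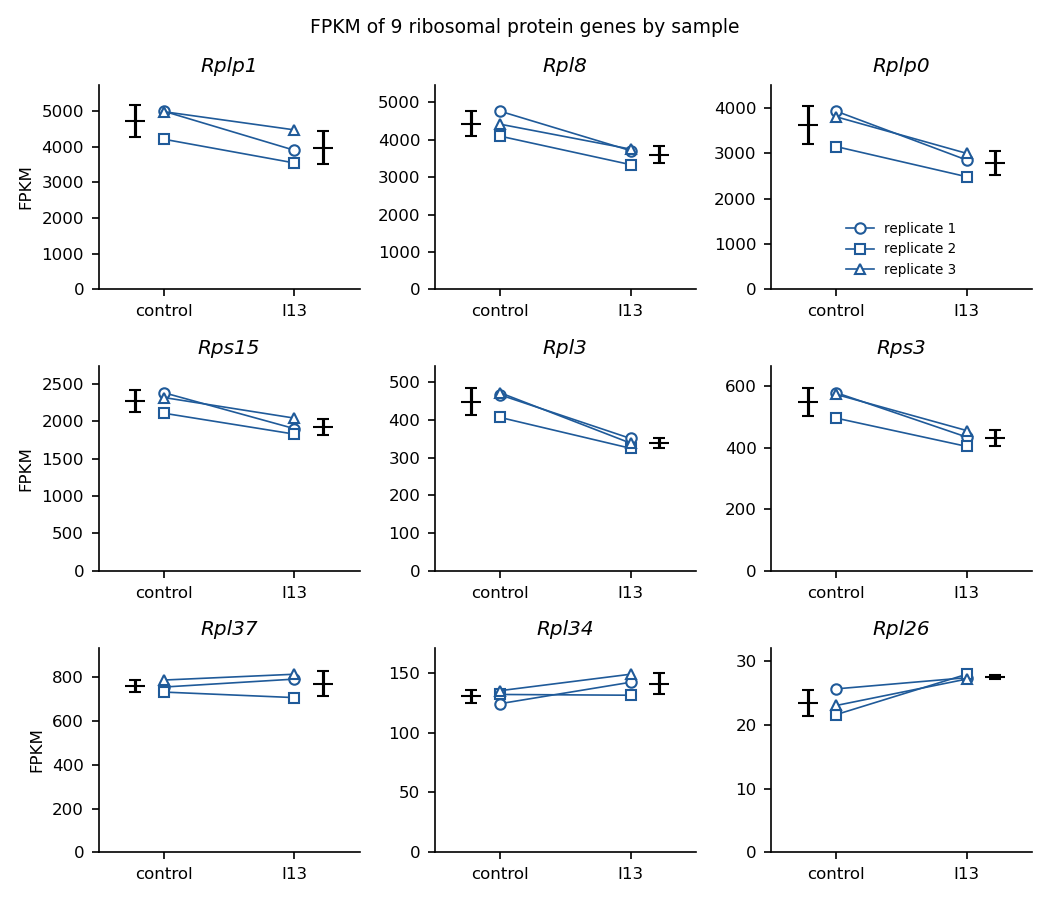
FPKM (vertical axes, each from 0) of 9 ribosomal protein genes in control and I13 samples, with a line joining same-numbered samples and, beside the points, the mean ± SD of each group (n = 3). All lines fall for Rplp1, Rpl8, Rplp0, Rps15, Rpl3 and Rps3, whereas all 3 rise for Rpl26, from 25.7, 21.6 and 23.1 to 27.4, 28.0 and 27.2 FPKM.

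On the small subunit, Rps2 and Rps3, which lie at the entry of the mRNA channel, had the lowest fold changes. Rps3, known also for a role in DNA repair, had 578, 495 and 572 FPKM in control and 434, 404 and 455 FPKM after I13. Rps2 had 126, 106 and 109.6 FPKM in control and 99.1, 83.2 and 85.9 FPKM after I13. In both genes the groups did not overlap and the log2 fold change was -0.35, with an SE of 0.10 for Rps3 and 0.11 for Rps2. The adjusted p was 0.148 for Rps3 and 0.167 for Rps2 from limma without the block, and 0.0478 for both with it.

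Rpsa, the laminin receptor precursor, had 1852, 1535 and 1773 FPKM in control and 1441, 1271 and 1463 FPKM after I13, without overlap and with a log2 fold change of -0.30 (SE 0.11). Its adjusted p was 0.206 without and 0.0529 with the block from limma, which did not pass, and 0.0136 from limma-voom with the block, which did. Rps15, the most abundant member of the small subunit and a protein of its head, had 2380, 2106 and 2316 FPKM in control and 1899.9, 1827 and 2040 FPKM after I13. Rps6, the substrate of the S6 kinases, had 1373, 1260.3 and 1423 FPKM in control and 1206, 1071 and 1169 FPKM after I13. Both were without overlap, with log2 fold changes of -0.24 (SE 0.09) and -0.23 (SE 0.09) and adjusted p-values of 0.235 and 0.237 from limma. With the block these were 0.0807 and 0.0760 from limma and 0.0489 and 0.0417 from limma-voom. Rps19, the gene most often mutated in Diamond-Blackfan anaemia, had 148, 137 and 159 FPKM in control and 132, 119 and 135 FPKM after I13, a log2 fold change of -0.20 (SE 0.09, adjusted p 0.306 from limma). Its adjusted p with the block was 0.103 from limma and 0.0803 from limma-voom.

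Rps27a, which is made as a fusion with ubiquitin, had 402, 407 and 414 FPKM in control and 401, 339 and 370.1 FPKM after I13. I13 replicate 1 all but met the lowest control, and the log2 fold change was -0.14 (SE 0.09). For Rps27a it was -0.20 without I13 replicate 1 and -0.08 without I13 replicate 2. Rps4x, whose gene lies on the X chromosome, had 1219, 1116 and 1264 FPKM in control and 1111, 1027 and 1126 FPKM after I13, with overlap and a log2 fold change of -0.14 (SE 0.09). The adjusted p-values were 0.423 and 0.431 from limma, and neither passed.

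Several members have a paralog that can take their place in the ribosome. Rps27 had 253, 223 and 266 FPKM in control and 213, 189.7 and 219 FPKM after I13, a log2 fold change of -0.25 (SE 0.10) without overlap. The adjusted p of Rps27 was 0.250 without and 0.0683 with the block from limma, and 0.0535 from limma-voom with the block. Its p53-responsive paralog Rps27l had 239, 239.6 and 223 FPKM in control and 234, 243 and 218 FPKM after I13, a log2 fold change of -0.01 (SE 0.08). In control cells the pair stood at similar FPKM, 247 ± 21.8 for Rps27 and 234 ± 9.67 for Rps27l (SD, n = 3), and after I13 at 207 ± 15.6 and 232 ± 12.4. Rpl36a, at 384 ± 10.3 FPKM in control and 382 ± 13.9 FPKM after I13, had a log2 fold change of -0.01 (SE 0.08). Its intronless paralog Rpl36al was listed at 0.709, 0.755 and 0.629 FPKM in control and 0.755, 0.220 and 0.422 FPKM after I13. These rest on 5 to 18 fragments a sample, so its log2 fold change of -0.61 (SE 0.43), the lowest of all members, is also the least precise. The value was -0.96 without I13 replicate 1 and -0.25 without I13 replicate 2, where Rpl36al was no longer the lowest. Rpl3l, the paralog of Rpl3 in striated muscle, was listed at 0.173 to 0.591 FPKM and at 5 to 17 fragments a sample, and its groups overlapped.

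Rpl24, a protein at the interface of the subunits, was listed at 0.274, 0.771 and 0.220 FPKM in control and 0.275, 0.405 and 0.222 FPKM after I13, or 4 to 14 fragments a sample. It was the lowest of all 80 members in mean FPKM over the samples. Rpl24 lay under the filter, so the main fit gave it no fold change. The other members with a control mean under 30 FPKM were Rpl3l, Rpl36al, Rpl21, Rpl13a, Rpl26 and Rpl29. Rpl29 was added to the genes named after its values were seen. The proteins of Rpl24, Rpl21, Rpl13a, Rpl26 and Rpl29 are regular parts of the ribosome, although they were listed far under the median of 450 FPKM. The cause was not tested.

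Ribosomal protein genes have many processed pseudogenes, and reads that fit both a gene and its copies may be split or counted with either. The table held 156 rows named as such copies, 10 of them with the biotype protein_coding, and 50 members had at least 1. Rps3a2, Rps3a3, Rpl6l, Rpl37rt and Rps27rt, copies or related rows with other kinds of symbol, are outside these counts. Rps3a2 and Rps3a3 had control means of 1456 and 671 FPKM beside 709.6 FPKM for Rps3a1, which has no copy among the 156, and Rps27rt had 347 FPKM beside 247 FPKM for Rps27, so the counts that follow are low. In 18 members these rows held over 10% of the fragments of the gene and its copies together, and in 5 over 50%, namely 77.9% for Rps2, 61.0% for Rps18, 52.7% for Rpl21, 52.2% for Rpl3 and 50.2% for Rps26. Rps26 and its copy had nearly equal means, 10102 and 10167 fragments a sample. The levels of these genes are therefore uncertain. The copy Rpl3-ps1 had 1277, 1126 and 1302 FPKM in control and 953, 879 and 956 FPKM after I13, a log2 fold change of -0.41 (SE 0.09) beside the -0.40 of Rpl3. Rps18-ps3 had 573, 522 and 587 FPKM in control and 385, 362 and 433 FPKM after I13, a log2 fold change of -0.51 (SE 0.10) beside the -0.22 (SE 0.08) of Rps18. Both copies were picked after their values were seen, and their adjusted p-values from limma were 0.115 and 0.108 without and 0.0384 and 0.0361 with the block. Of the 91 copies tested, 69 had a fold change below 0, with a median of -0.12. When the fragments of the copies were counted with their genes, 72 of 78 members were below 0 and the median was -0.18.

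Across 77 members the fold change correlated with the log2 mean FPKM at a Pearson r of -0.294 and a Spearman rho of -0.159, and with gene length at an r of -0.235 and a rho of -0.310. These correlations are descriptions across genes that share the same 6 libraries. By abundance the medians were nearly level, at -0.16, -0.16 and -0.19 in the 26 lowest, the 26 middle and the 25 highest genes, of which 10, 9 and 7 were lower at an unadjusted p below 0.05, against 10.8% of all tested genes. In the 26 shortest genes, with recovered lengths of 404 to 1434 bases, the median log2 fold change was -0.12, and in the 25 longest, of 2349 to 6270 bases, it was -0.23. Removing the trend of all genes with length left the median over the members at -0.18 and moved that of all tested genes from -0.01 to -0.03, so that the distance between them went from -0.18 to -0.15. It left 19 members lower at an unadjusted p below 0.05, 24.4% of those tested against 12.6% of all genes.

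The mitochondrial ribosomal proteins, which build the separate ribosome of the mitochondria, gave similar values. Of 76 tested, 64 had a fold change below 0, with a median of -0.15, and 21 were lower and 1 higher at an unadjusted p below 0.05, against 10.8% and 7.79% of all tested genes. None was called by limma. Every I13 value lay below every control value in 31 of the 76, beside 32 of the 78 cytosolic genes and 15.4% of all tested genes. With the block, an adjusted p below 0.05 was reached by 0 in limma and by 5, all lower, in limma-voom, where 1.24% and 5.77% of all tested genes were so lower. Their order among samples was another one, since their median against the control mean was 0.01, 0.09 and -0.11 in control replicates 1, 2 and 3 and -0.13, -0.11 and -0.18 in I13 replicates 1, 2 and 3. Control replicate 2 was thus the highest control for these genes and the lowest for the cytosolic set. The difference between both sets was not tested.

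The translation factors and companions whose mRNAs also carry a TOP tract did not share one sign. Of 16 tested, 9 were below 0 and 7 above, with a median of -0.09, and 6 were lower and 1 higher at an unadjusted p below 0.05, beside the same 10.8% and 7.79%. Eef2, which moves the ribosome along the mRNA, had 2530, 2157 and 2587 FPKM in control and 1821, 1750 and 1924 FPKM after I13, with a log2 fold change of -0.40 (SE 0.10) and an adjusted p of 0.127 without and 0.0447 with the block from limma. Eif4b, which helps unwind mRNA, had 420, 416 and 437 FPKM in control and 345, 334 and 321 FPKM after I13, with a log2 fold change of -0.35 (SE 0.08) and an adjusted p of 0.113 without and 0.0512 with the block from limma, and 0.0144 from limma-voom with the block. In both factors the groups did not overlap. Nap1l1, a histone chaperone, went the other way, with 105, 127 and 114 FPKM in control and 149, 139.7 and 141 FPKM after I13 and a log2 fold change of 0.32 (SE 0.09). Its adjusted p was 0.158 without and 0.0889 with the block from limma and 0.0390 from limma-voom with the block. Eef1a1, the carrier of aminoacyl-tRNA, had a log2 fold change of -0.10 (SE 0.10). Beyond the name rule, Fau and Rack1, which encode a small subunit protein fused to a ubiquitin-like domain and a small subunit scaffold, had log2 fold changes of -0.14 (SE 0.13) and -0.18 (SE 0.12), and Rpl7l1 and Rpl22l1 were above 0 without passing.

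Of 15 genes of the mTORC1 and S6 kinase pathway, 11 had a fold change below 0, with a median of -0.15, and 4 were lower and 1 higher at an unadjusted p below 0.05, again beside 10.8% and 7.79% of all tested genes. Eif4ebp2, a repressor of cap-dependent translation, had 78.8, 76.2 and 70.9 FPKM in control and 59.8, 55.1 and 49.1 FPKM after I13. Its groups did not overlap, and the log2 fold change was -0.46 (SE 0.10) with an adjusted p of 0.113 without and 0.0401 with the block from limma. Rptor, Tsc2 and Mtor were also lower without overlap, with log2 fold changes of -0.40 (SE 0.10), -0.33 (SE 0.09) and -0.27 (SE 0.10). Their adjusted p-values with the block were 0.0776, 0.0725 and 0.124 from limma and 0.0181, 0.0301 and 0.0573 from limma-voom. Larp1, the repressor of TOP mRNAs, had a log2 fold change of -0.15 (SE 0.12), and Rps6ka3, a kinase of the RSK family, one of 0.41 (SE 0.10). The adjusted p of Rps6ka3 was 0.120 without and 0.0639 with the block from limma and 0.0175 from limma-voom with the block. Of 6 chaperones of ribosomal proteins 3 were below 0, and of 6 transcription factors linked to ribosomal protein promoters 2 were. Myc, which drives ribosome production in many cells, had 142, 169.8 and 133 FPKM in control and 195, 222 and 159 FPKM after I13. It was higher after I13 in all 3 pairs with overlapping groups, and its log2 fold change of 0.37 (SE 0.15) had an adjusted p of 0.252 without and 0.0520 with the block from limma, and 0.0168 from limma-voom with the block.

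Among the 19 ribosomal protein genes linked to Diamond-Blackfan anaemia, a failure of red cell production, 18 had a fold change below 0, with a median of -0.15, and 5 were lower and 1 (Rpl26) higher at an unadjusted p below 0.05, against 10.8% and 7.79% of all tested genes. This list is part of the 78 members, of which 73 were below 0, with a median of -0.18, and 26 were lower at that p. Rpl15, a large subunit gene of that list, had 367, 359 and 394 FPKM in control and 304, 291 and 314 FPKM after I13. Its groups did not overlap, with a log2 fold change of -0.30 (SE 0.08) and an adjusted p of 0.138 without and 0.0532 with the block from limma, and 0.0226 from limma-voom with the block. The lowest values of the list after Rpl15 were those of Rpl18 and Rps27, at -0.27 and -0.25.

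The markers of the cell line were read beside these values. The blood cell genes Ptprc, Spn, Coro1a, Lcp1 and Laptm5 were all listed, summing to 425, 316 and 443 FPKM in control and 448, 424 and 537 FPKM in I13 replicates 1, 2 and 3, and Coro1a or Laptm5 was the most abundant in each sample. The 3 genes of the interleukin-3 receptor summed to 551, 444 and 885 FPKM in control and 909, 961 and 1652 FPKM after I13, with Csf2rb and Csf2rb2 holding nearly all of it. Csf2rb and Csf2rb2, near-identical copies whose reads may be shared, had log2 fold changes of 0.83 (SE 0.31) and 1.02 (SE 0.31), with adjusted p-values of 0.220 and 0.165 without and 0.0313 and 0.0312 with the block from limma. Ptprc had a log2 fold change of 0.44 (SE 0.09) without overlap, and its adjusted p was 0.109 without and 0.0578 with the block from limma and 0.0115 from limma-voom with the block. Of the 5 blood cell genes, 4 were above 0, with Lcp1 at 0.10 (SE 0.09), Spn at 0.63 (SE 0.32) and Laptm5 at 0.67 (SE 0.29). Coro1a was below 0 at -0.14 (SE 0.16) and lower in all 3 pairs. Of 7 B lineage genes 6 were listed and Cd79a was the most abundant, at 14.1 to 27.5 FPKM, while Pax5, Ebf1, Igll1 and Vpreb1, which define the pro-B stage, were at or near 0 in every sample. The erythroid globins summed to 1.18, 0.659 and 0.633 FPKM in control and 5.82, 8.30 and 2.41 FPKM after I13, with Hba-a1, Hbb-bs or Hbb-bt the most abundant depending on the sample. Hba-a1 had a log2 fold change of 2.40 (SE 0.56) with an adjusted p of 0.116 without and 0.0384 with the block from limma. Of the fibroblast and T cell genes, Col1a1, Cd3e and Cd3g were listed and reached at most 0.130 FPKM in any sample, and the epithelial genes were not analysed here. The part of the blood cell, receptor and globin genes in the ribosomal protein values was not tested.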

How the data were processed

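Control and I13 samples (3 each) were grouped by their labels. The authors deposited FPKM per gene and sample, made from stranded mRNA libraries. The submitters' notes name Trimmomatic, HISAT2, Cufflinks and HTSeq without versions and the build hg38, although the genes listed are those of the mouse. The depth in each sample was recovered by finding whole fragments and a whole length that give the FPKM of all samples within 0.03 fragments, which held for 22410 genes and failed for 3. Between 99.44% and 99.47% of the recovered totals fell on listed genes. On simulated data 98.67% of 3000 genes were recovered exactly. Columns of per-sample values without a sample numbered 0. Depth limits the genes with few fragments, and intervals were not computed for them.

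limma 3.58.1 in R 4.3.3 was run on log2(FPKM + 0.1), a scale that understates changes of low genes, with eBayes and a trend, over all genes with a mean of at least 0.5 FPKM. It was tried on simulated data in which 200 of 12162 genes differed by 1 on the log2 scale. There limma called 164 of them and 5 others, and 156 and 6 with the replicate block. How well it finds changes as small as the median of -0.18 over the members was not tested. Deviations from the group means correlated at 0.145, 0.301 and 0.219 across genes between same-numbered samples, and at -0.258 to 0.0503 between others, so the replicate numbers of the labels were taken to pair the samples, although over the members alone pair 1 did not correlate. No source says what a number marks. The pairing was read from the same values that the block then fitted, so the p-values with the block depend on it.

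Members named are the 5 with the lowest and the 5 with the highest fold change at a mean of at least 1 FPKM, the 5 most abundant, those under the filter, and fixed members of the stalk, the 5S particle, the small subunit head, the ubiquitin fusion and paralog pairs. Lists of related genes and of markers were written down with them. The members and lists were chosen with earlier results of these data known. Of other lists, the genes with the most extreme values or the best known roles are named. Alternatives were other scalings, pseudocounts, filters and variance models, the block, a loess correction for length, limma-voom on fragments, and leaving out each sample. Counting pseudogene fragments with the gene, and leaving out pairs under the block, were added after seeing the data. No mouse genome was used, so no position or sequence is given. Some genes of these lists are not reported here by name. Figures were drawn with matplotlib 3.10.9.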

Additional observations from a re-analysis of the deposited data

How the results depend on the processing

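No ribosomal protein gene was called in either direction under any alternative, and the median over the members stayed below 0 in all of them, from -0.12 without I13 replicate 2 to -0.23 without control replicate 2, with 65 to 73 members below 0 when single samples were left out. It was -0.16 after rescaling to TPM and by median ratios, each with 67 members below 0. The number lower at an unadjusted p below 0.05 moved more. The 26 members (33.3%, against 10.8% of all tested genes) became 7 with median ratios (8.97% against 9.45%), 6 without control replicate 1 (7.69% against 7.42%), 6 without I13 replicate 2 (7.69% against 8.50%) and 9 without control replicate 3 (11.5% against 9.56%), each close to the share of all genes. Such members rose to 28 with TPM (35.9% against 8.11%) and to 32 with the FPKM total without ribosomal protein genes (41% against 10.5%). They were 11 without I13 replicate 1 (14.1% against 6.73%), 14 without a filter (17.5% against 7.12%), 14 without a variance trend (17.9% against 10.1%), 26 without I13 replicate 3 (33.3% against 9.84%), 34 without control replicate 2 (43.6% against 8.23%) and 44 with the replicate block (56.4% against 14.8%). Members with an adjusted p below 0.05 from limma, 0 without the block, were 6 with the replicate block. With the block and a second change they were 1 when the length trend was removed, 20 with limma-voom, 6 with pseudogene fragments counted with the gene, and 0 under the block without any 1 of the pairs. Genes called higher and lower among all tested, 4 and 1, became 2 and 0 with median ratios or a pseudocount of 0.01, 0 and 0 when any sample was left out, and 166 and 64 with the replicate block. With the block and a second change they were 165 and 77 with the length trend removed, 375 and 128 with limma-voom and 168 and 64 with pseudogene fragments added. Without the block limma-voom called 5 and 1. Called lower were 3 without a filter or a trend. Under the block without pair 1 they were 78 and 5, and without pair 2 or 3 they were 0 and 0. The share held by the members was 8.87% in control and 7.70% after I13 as fragments, and 19.3% and 17.2% of the FPKM with pseudogene rows.

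Signs turned for 8 of the genes named by rule, whose changes were small or imprecise, and for others such as Rpl29, Rps20 and Rps28. With TPM and median ratios Rpl36a came to 0.0227 and 0.0133, Rplp2 to 0.0157 and 0.00637, and Rps27l to 0.0163 and 0.00703. Without single samples the ranges were -0.102 to 0.0665 for Rplp2, -0.0478 to 0.0289 for Rps27l, -0.0249 to 0.0521 for Rpl23, -0.0325 to 0.02 for Rpl36a, -0.0188 to 0.0826 for Rpl37, -0.101 to 0.271 for Rpl21 and -0.0822 to 0.0106 for Rpl4. Under the block, Rpl37 was at -0.00131 and Rplp2 at 0.0168 without pair 1, Rpl36a at 0.00935 without pair 2, and Rpl36a at 0.0246, Rpl4 at 0.00851 and Rpl5 at 0.0163 without pair 3. Pseudogene fragments and the left-out pairs were chosen after seeing the data. The other values of single genes, 558 planned and 139 added, kept their sign and stayed uncalled by the joint rule of adjusted p and fold change. This does not cover each part of that rule, since Rpl3, Rplp0, Rps2 and Rps3 passed the adjusted p under the block, Rpsa, Rpl8, Rplp1, Rpl10, Rps6 and Rps15 also did so with limma-voom and the block, and Rpl36al came to -0.23 with a pseudocount of 1. The cause of the changes was not tested.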
